A study of Mus musculus with 6 samples.

Results

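The V2R vomeronasal receptor genes were the genes of the deposited files whose name begins with Vmn2r, and 127 of the 24661 genes met this rule. Their RNA was measured by RNA-Seq in 3 wild-type and 3 RTP1,2DKO mice, and the questions here were which V2R genes are detected, whether similar V2R genes move in opposite directions, and whether the summed V2R RNA differs between the genotypes. In RTP1,2DKO mice the coding regions of Rtp1 and Rtp2, which encode transporting proteins that bring odorant receptors to the cell surface, are replaced in the germ line, so that every cell of the animal carries the change. The wild-type mice were sex-matched littermates with both genes intact, and each library came from 1 mouse at postnatal day 21. Mice of both sexes were used according to the methods, and the tests here did not include sex. The labels give the strain as C57BL/6. By the methods, the alleles were made in 129/B6 hybrid embryonic stem cells and the line was kept by backcrossing to C57BL/6, and the labels do not say how many generations of backcrossing these mice had. The tissue is called olfactory epithelium in the labels and whole olfactory mucosa with surrounding tissue in the methods.

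V2Rs are G protein-coupled receptors with a long extracellular domain that binds peptides and proteins, many of them pheromones. In the mouse they are best known from the basal neurons of the vomeronasal organ, where they signal through the G protein subunit Gαo, a phospholipase C and the cation channel TRPC2. Each neuron is thought to express one V2R of families A, B or D together with members of the small family C, which comprises Vmn2r1 to Vmn2r7. V2R genes lie in clusters of young duplicates, and many of them differ at few bases.

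Total estimated counts per library lay between 31125410 and 41636996. The targeted genes matched the labels. Rtp1 fell from 19788.5 ± 5913.4 to 95.0 ± 12.2 normalized counts (mean ± SD, n = 3 mice per genotype), and Rtp2 from 8388.0 ± 1180.7 to 45.0 ± 16.7. All 7 listed markers of mature olfactory sensory neurons fell, with a median log2 fold change of -1.09, and Omp, the olfactory marker protein, fell by 0.90 on the log2 scale (edgeR, adjusted p = 0.0067). In such bulk RNA, fewer cells of a type and less RNA per cell cannot be told apart.

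V2R transcripts were present at low levels in every mouse. At least 10 estimated counts were assigned in every mouse to 79 of the 127 genes, or 62.2%, against 68.4% of all genes and 12.3% of the 211 V1R genes, the other large vomeronasal receptor family, whose transcripts are shorter. In the wild-type mice alone 88 genes met this limit, and in the RTP1,2DKO mice alone 90 did. A further 42 genes reached 10 counts in some mice only, and 4 stayed under 10 in all mice with some counts left. Vmn2r41 and Vmn2r109 were at 0 in all 6 mice, and a count of 0 allows up to 3 counts in a library from counting error alone. Kallisto assigns reads by words of 31 bases, and 3.44% of those of Vmn2r41 but 64.2% of those of Vmn2r109 occur in no other gene. Some detected genes also have few such words, down to 0% for Vmn2r36, so their counts depend on how reads over shared words were divided. Detected genes were found on every chromosome that holds V2Rs, with 32 of 53 on chromosome 7, 22 of 32 on chromosome 17, 7 of 8 on chromosome 3, 6 of 11 on chromosome 5, 4 of 8 on chromosome 10, 2 of 9 on chromosome 6, both on chromosome 14, and the single members on chromosomes 4 and X.

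Levels were compared between genes as deposited TPM, which corrects the reads of a transcript for its length and the depth of the library. The median V2R gene had a mean level of 0.488 TPM over the 6 mice, and 38 genes reached a mean of 1 TPM. The level was highest for Vmn2r89 on chromosome 14 (51451857 to 51464172, GRCm38), at 11.6, 9.37 and 6.93 TPM in the 3 wild-type mice and 8.76, 6.84 and 6.23 TPM in the 3 RTP1,2DKO mice. Vmn2r122 followed, with 8.43, 7.60 and 6.12 TPM in the wild-type and 9.23, 6.42 and 8.26 TPM in RTP1,2DKO. Vmn2r29 on chromosome 7 had 6.230, 10.096 and 2.359 TPM in the wild-type and 10.571, 7.619 and 6.834 TPM in RTP1,2DKO. These first 3 genes overlapped in their ranges over mice, so their order is not set by the data. Vmn2r2, Vmn2r1, Vmn2r42, Vmn2r36, Vmn2r-ps129, Vmn2r-ps159 and Vmn2r20 completed the 10 highest, with mean levels from 4.84 down to 2.81 TPM. For Vmn2r36, Vmn2r29, Vmn2r42, Vmn2r-ps129 and Vmn2r20, 0%, 2.2%, 2.3%, 6.3% and 12.3% of the 31-base words occur in no other gene. Their levels one by one are thus uncertain. The share was 35.1% for Vmn2r-ps159, 48.8% for Vmn2r89, 56.5% for Vmn2r2 and 63.4% for Vmn2r1, and it is not known for Vmn2r122. These words were taken from GENCODE M21. For Vmn2r42, Vmn2r-ps129, Vmn2r-ps159, Vmn2r2 and Vmn2r89 no coding length there equalled a deposited transcript length. Their shares may thus not hold for the transcripts that reads were assigned to. The 10 together held 37.3% of the summed mean level of the family. Both Vmn2r-ps genes carry names of pseudogenes, but the GENCODE M21 annotation types Vmn2r-ps129 as a pseudogene and Vmn2r-ps159 as protein coding.

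**Figure D1:**
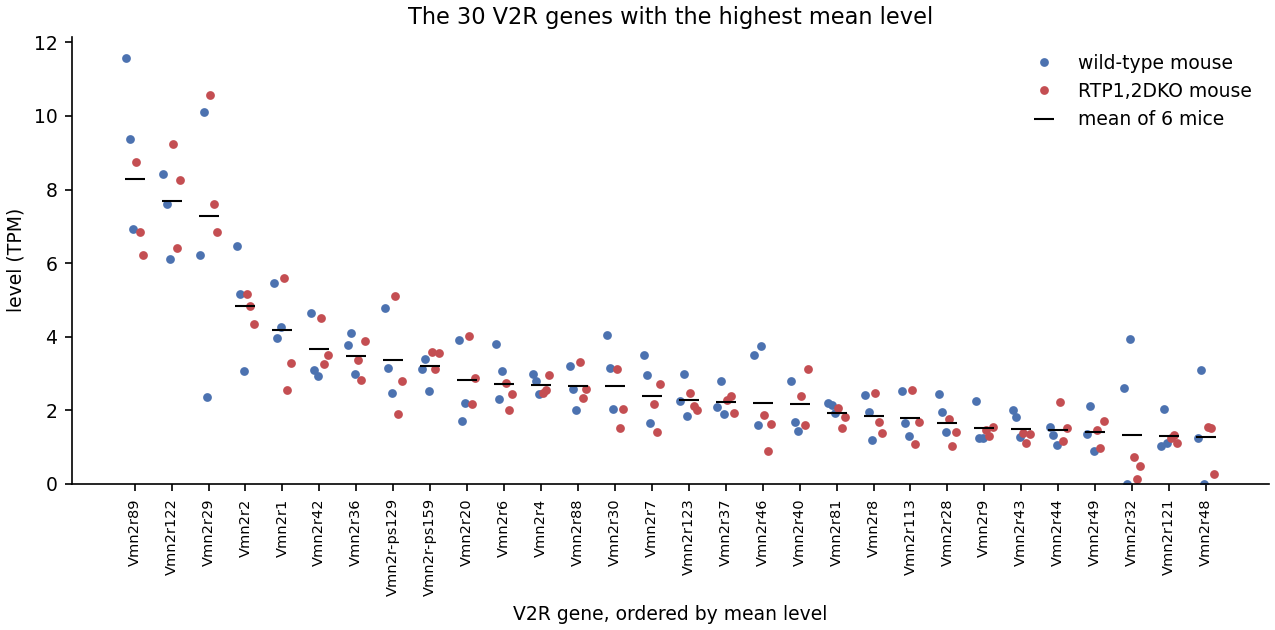
Level in TPM (y axis) of the 30 V2R genes with the highest mean, in order of the mean (x axis). Each point is 1 mouse, blue for wild-type and red for RTP1,2DKO, and the black bar is the mean of the 6 mice. Vmn2r89, Vmn2r122 and Vmn2r29 stand at the top with ranges that overlap, and most other genes lie under 3 TPM.

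Of the 7 family C genes, which are coexpressed with other V2Rs, all but Vmn2r5 reached 10 estimated counts in every mouse, and none passed the edgeR test (0 at an unadjusted p under 0.05). Over all genes 3.63% passed. Vmn2r1 on chromosome 3 (64081547 to 64109484) had 342.4, 233.8 and 387.0 normalized counts in the wild-type and 378.3, 216.3 and 308.7 in RTP1,2DKO, a log2 difference of -0.09 with a standard error (SE) of 0.24. Vmn2r2 (64115278 to 64141928) had 357.9, 269.1 and 244.8 against 308.7, 363.7 and 360.6, a log2 difference of 0.25 with an SE of 0.18. The groups overlapped for both. For Vmn2r3, Vmn2r4, Vmn2r5, Vmn2r6 and Vmn2r7 the log2 fold changes were 0.21, 0.22, 0.54, -0.15 and -0.06. The lowest level of the 7 was that of Vmn2r5, at 0.212 TPM, with 26.9, 2.9 and 2.2 normalized counts against 24.2, 14.8 and 7.8. Its log2 fold change was 2.54 without wild-type mouse 1, and 0.05, 0.09 and 0.11 without wild-type mouse 2, wild-type mouse 3 and RTP1,2DKO mouse 1. Only 9.9% of the 31-base words of Vmn2r5 occur in no other gene. It and Vmn2r-ps11 share at least 50% of the words of the smaller of them. Vmn2r-ps11 had 39.3, 30.5 and 34.2 normalized counts against 25.3, 28.8 and 90.2. How reads were divided between them was not tested. Summed over the 7 genes, the wild-type mice had 1321, 980.8 and 1317.5 normalized counts and the RTP1,2DKO mice 1213.9, 1116.3 and 1437.6, so the groups overlapped.

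The summed V2R counts overlapped between the genotypes. The sum over all 127 genes was 9472.2, 7529.8 and 9220.6 normalized counts in the 3 wild-type mice and 9711.3, 8100.7 and 10362.9 in the 3 RTP1,2DKO mice. In both genotypes mouse 2 was the lowest, and the ranges overlapped. In each of the 3 pairs of mice with the same number, the RTP1,2DKO mouse was above the wild-type mouse, by a mean of 0.10 on the log2 scale. That the number marks a pair is an assumption. The means were 8740.9 ± 1056.3 (SD, n = 3) and 9391.6 ± 1164.5 (SD, n = 3), a log2 ratio of 0.10 against a spread between mice of a group of 0.18 on the log2 scale. As a share of the library, V2R genes took 0.0237% to 0.0271% of the counts in the wild-type and 0.0223% to 0.0296% in RTP1,2DKO. As TPM, the sums were 162.8, 140.3 and 106.8 in the wild-type and 154.8, 101.6 and 117.7 in RTP1,2DKO, and the log2 ratio turned to -0.13, again with overlapping groups and the RTP1,2DKO mouse lower in 2 of the 3 pairs. The direction of the family sum thus depended on the unit. The V1R sum also overlapped, at 2887.1, 2703.9 and 2847.9 normalized counts against 2781.9, 2807.2 and 3171.1. The sum over the 15 trace amine-associated receptor (Taar) genes did not overlap in normalized counts, at 608.2, 754.7 and 550.2 against 1105.4, 1180.8 and 1075.0, but did in TPM. The sums of V2R genes by chromosome overlapped between the genotypes on each of chromosomes 3, 5, 6, 7, 10, 14 and 17, with log2 ratios between -0.01 and 0.14 in normalized counts and between -0.25 and -0.08 in TPM.

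**Figure D2:**
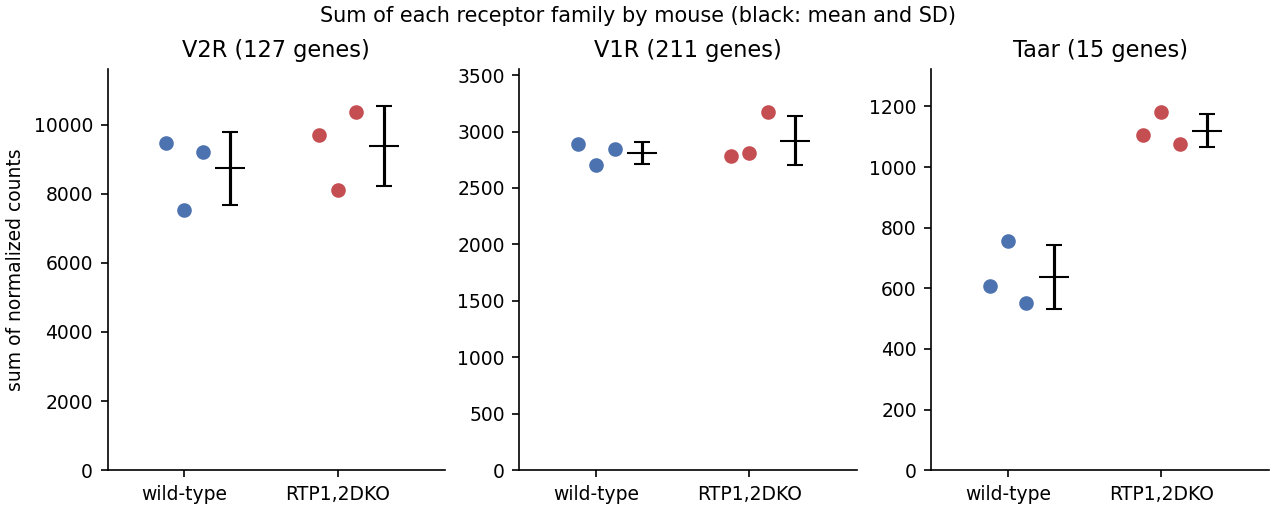
Sum of normalized counts (y axis, from 0) of the V2R, V1R and Taar genes in each mouse, by genotype (x axis). Points are mice, and black bars give the mean and SD. The genotypes overlap for V2R and V1R, and the 3 RTP1,2DKO mice lie above the 3 wild-type mice for Taar.

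Among single genes, edgeR's quasi-likelihood test with Benjamini-Hochberg adjustment over 22152 genes called 2 of the 125 V2R genes that could be tested, against 3.63% of all genes. Vmn2r39 was higher in RTP1,2DKO, a direction in which 0.438% of all genes were called, and Vmn2r38 was lower, where 3.19% were. The share called among V2R genes, 1.6%, was below that of all genes. At an unadjusted p under 0.05, 6 V2R genes were higher and 7 lower, against 4.7% and 7.43% of all genes. The mice of the 2 genotypes did not overlap in 7 of the 125 with RTP1,2DKO above and in 4 with RTP1,2DKO below, against 7.17% and 9.24% of all genes. The median log2 fold change of the 105 V2R genes with a mean of at least 10 normalized counts was 0.11, beside 0.01 for the 18133 genes with such a mean.

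Vmn2r38 and Vmn2r39 both lie on chromosome 7, at 9073775 to 9097881 and 9013806 to 9030798 on the minus strand. They belong to a set of 23 genes, Vmn2r29 to Vmn2r51, between 7231327 and 10105741, which were linked because each shares 31-base words with another one, at least 20% of those of the smaller gene. Between 0% and 33.3% of the words of these genes occur in no other gene. When the limit was raised to 50%, Vmn2r38 stayed joined to Vmn2r31, Vmn2r33 and Vmn2r44, and Vmn2r39 to Vmn2r43 and Vmn2r50. Their coding sequences in GENCODE M21 (GRCm38) are shown over 120 bases within 1 coding exon. The stretch is the one at which the genes of each set differ at the most positions. Within the coding sequence, only reads over such positions tell the genes apart. Capitals mark positions at which the genes of a set do not all carry the same base. The first set is shown from coding base 1806 to 1925, on the minus strand of chr7:9075457-9075576, chr7:8368121-8368240, chr7:7384646-7384765 and chr7:7551628-7551747 in that order.
Vmn2r38: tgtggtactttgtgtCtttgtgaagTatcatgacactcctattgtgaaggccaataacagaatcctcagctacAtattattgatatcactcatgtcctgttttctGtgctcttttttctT
Vmn2r44: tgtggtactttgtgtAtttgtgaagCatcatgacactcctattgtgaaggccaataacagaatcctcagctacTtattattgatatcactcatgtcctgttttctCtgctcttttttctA
Vmn2r31: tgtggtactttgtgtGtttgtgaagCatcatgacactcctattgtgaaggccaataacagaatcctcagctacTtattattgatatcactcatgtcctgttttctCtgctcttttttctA
Vmn2r33: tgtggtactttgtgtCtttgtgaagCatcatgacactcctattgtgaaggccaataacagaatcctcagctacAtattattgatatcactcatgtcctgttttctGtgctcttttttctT

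Only 5 of these 120 positions differ among the 4 genes. Over all 2586 coding bases, Vmn2r38 differs from Vmn2r33 at 14 positions, an identity of 99.5%, with an identical stretch of 1010 bases. It differs from Vmn2r44 and from Vmn2r31 at 29 positions each. The second set is shown from coding base 1303 to 1422 of Vmn2r39 and Vmn2r50 and from 1255 to 1374 of Vmn2r43, on the minus strand of chr7:9023579-9023698, chr7:8253489-8253608 and chr7:10046079-10046198 in the order printed.
Vmn2r39: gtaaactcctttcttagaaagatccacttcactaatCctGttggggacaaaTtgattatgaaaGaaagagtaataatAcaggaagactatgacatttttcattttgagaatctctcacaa
Vmn2r43: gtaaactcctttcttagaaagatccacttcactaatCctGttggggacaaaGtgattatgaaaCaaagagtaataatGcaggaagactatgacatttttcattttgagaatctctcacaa
Vmn2r50: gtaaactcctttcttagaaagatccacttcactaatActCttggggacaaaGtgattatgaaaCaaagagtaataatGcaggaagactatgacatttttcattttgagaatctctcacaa

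Here too 5 of 120 positions differ. Vmn2r39 and Vmn2r43 differ at 9 of 2538 aligned bases, an identity of 99.7%, and share an identical stretch of 977 bases. Vmn2r50 differs from Vmn2r39 at 30 of 2586 bases. Reads over the coding sequence thus leave the counts of these genes uncertain one by one. The deposited transcript of Vmn2r43 is 2855 bases long, and its bases outside the coding sequence were not compared.

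Vmn2r38 had 131.4, 21.9 and 62.8 normalized counts in the 3 wild-type mice and 0, 0 and 13.7 in the 3 RTP1,2DKO mice. All wild-type mice were above all RTP1,2DKO mice, but they spanned a wide range. It fell by 3.95 on the log2 scale with an SE of 0.91 (edgeR, adjusted p = 0.028). The fold stayed at -3.17 or beyond without each mouse in turn, but the adjusted p of the same edgeR test was 0.139, 0.0524, 0.124 and 0.119 without wild-type mouse 1, wild-type mouse 3, RTP1,2DKO mouse 1 and RTP1,2DKO mouse 2, and 0.422 with DESeq2. Without RTP1,2DKO mouse 3 both remaining mice of that genotype were at 0, and the fitted value of -9.17 is no bound. Vmn2r33, chosen after its values were seen, had 0 counts in all wild-type mice and 24.2, 34.0 and 0 normalized counts in RTP1,2DKO mice 1 to 3. In edgeR its adjusted p was 0.13, and 0.046 with the replicate number as a block, so the block made it a call. Where Vmn2r33 received counts, Vmn2r38 had none, and where Vmn2r38 received counts, Vmn2r33 had none. Vmn2r31 had 41.4, 78.2 and 144.4 normalized counts against 108.5, 65.4 and 62.7, and Vmn2r44 had 89.0, 72.5 and 88.2 against 139.1, 92.4 and 133.3. The sum of the 4 genes was 261.7, 172.7 and 295.5 in the wild-type and 271.9, 191.9 and 209.7 in RTP1,2DKO, and these ranges overlapped. Fitted as 1 feature, their log2 difference was -0.12 with an SE of 0.23 (edgeR, adjusted p = 0.91).

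Vmn2r39 had 15.5, 24.8 and 43.0 normalized counts in the wild-type and 91.7, 84.6 and 85.3 in RTP1,2DKO. The RTP1,2DKO mice lay close together and all above the wild-type mice. It rose by 1.66 on the log2 scale with an SE of 0.36 (edgeR, adjusted p = 0.022). Without wild-type mouse 1 or 2, or RTP1,2DKO mouse 1, 2 or 3, the adjusted p in edgeR was 0.0824, 0.0849, 0.0798, 0.0686 and 0.0742, and the call held in the fit without wild-type mouse 3. The log2 fold change stayed between 1.37 and 2.09 in these 6 fits. Vmn2r43 had 133.4, 112.6 and 122.4 against 99.1, 100.3 and 133.3, and Vmn2r50 ran from 0 to 43.4 in the wild-type and up to 62.7 in RTP1,2DKO. The sum of these 3 genes was 192.4, 156.5 and 165.4 in the wild-type and 238.1, 195.3 and 281.2 in RTP1,2DKO. Every RTP1,2DKO mouse was above every wild-type mouse in the sum as well, with a log2 difference of 0.47 and an SE of 0.20, but it did not pass (edgeR, adjusted p = 0.36).

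**Figure D3:**
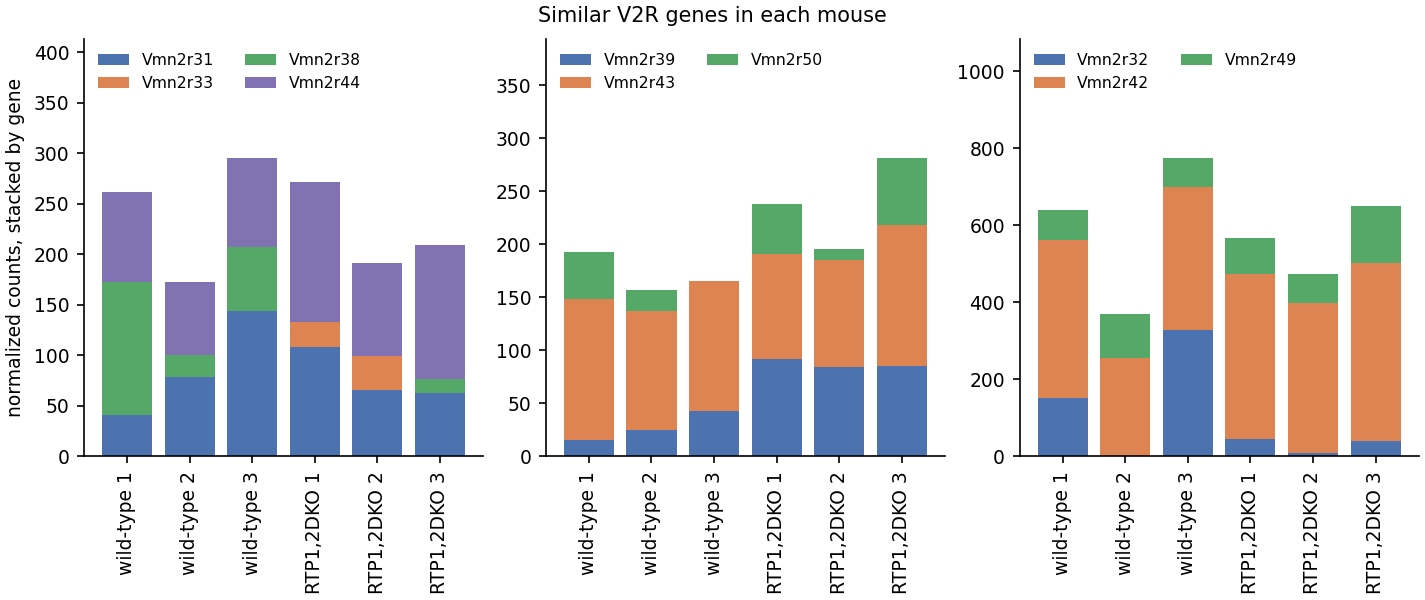
Normalized counts (y axis, from 0) of similar V2R genes stacked by gene for each of the 6 mice (x axis), for Vmn2r31, Vmn2r33, Vmn2r38 and Vmn2r44, for Vmn2r39, Vmn2r43 and Vmn2r50, and for Vmn2r32, Vmn2r42 and Vmn2r49. The parts shift between mice while the stacked height of the first and the last set overlaps between the genotypes.

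In a further set of the cluster, a member varied widely between wild-type mice. Vmn2r32 had 151.0, 0 and 327.5 normalized counts in the wild-type and 45.3, 9.6 and 40.2 in RTP1,2DKO, a log2 difference of -2.34 with an SE of 0.94 (edgeR, adjusted p = 0.31). Without wild-type mouse 2, which was at 0, it was -2.94 and passed the edgeR test (adjusted p = 0.0085), and without wild-type mouse 3 it was -1.26. The wild-type mice differed among themselves by more than the genotypes did. Vmn2r49, which shares 85.1% of its words with Vmn2r32, had 77.6, 114.5 and 75 against 91.7, 75.9 and 148.0, and Vmn2r42 had 410.7, 255.7 and 371.6 against 428.9, 388.9 and 461.6. Their sum with Vmn2r32 differed by -0.08 on the log2 scale, with an SE of 0.23. Vmn2r29 and Vmn2r46, which share 85.5% of the words of Vmn2r46, differed by 0.72 (SE 0.22) and -0.88 (SE 0.40) on the log2 scale, with adjusted p of 0.13 and 0.40 in edgeR. Vmn2r29 had 240.0, 341.6 and 173.1 normalized counts against 441.5, 397.7 and 405.7, with no overlap, and Vmn2r46 had 188.3, 81.1 and 292.2 against 108.5, 64.5 and 131.3. Without wild-type mouse 2, Vmn2r29 passed the edgeR test at a log2 fold change of 1.00 (adjusted p = 0.023), and over the 6 fits with a mouse left out it ranged from 0.51 to 1.00 and Vmn2r46 from -1.25 to -0.41. The sum of Vmn2r29 and Vmn2r46 was 428.3, 422.7 and 465.3 in the wild-type and 550.1, 462.2 and 537.0 in RTP1,2DKO. Among the other genes of the cluster, Vmn2r35, Vmn2r36, Vmn2r37, Vmn2r40 and Vmn2r45 had log2 fold changes between 0.07 and 0.55, and none passed the test. The rest of the cluster was named after its values were seen. Vmn2r30, Vmn2r48 and Vmn2r51 were at -0.25, -0.03 and -0.07. Vmn2r34 had 3.1, 1.9 and 0 normalized counts against 7.4, 16.6 and 14.7, without overlap (edgeR, adjusted p = 0.10), and Vmn2r47 had 30.9 in wild-type mouse 3 and 0 in every other mouse.

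Summed over the 23 genes, the cluster had 2518.8, 2088.5 and 2624.1 normalized counts in the wild-type and 2628.0, 2284.8 and 2868.3 in RTP1,2DKO. The ranges overlapped, and in each of the 3 pairs of mice with the same number the RTP1,2DKO mouse was higher. The sum differed by 0.11 on the log2 scale with an SE of 0.13 (edgeR, adjusted p = 0.84), although 13 members were above 0 and 9 below. When all linked V2R genes were summed, 57 V2R features remained and edgeR called 0 of them, with 1 at an unadjusted p under 0.05. When only genes that share at least 50% of their words were summed, a setting added after the data were seen, edgeR called 0 of 99 features, with 5 at an unadjusted p under 0.05, of which 3 were higher and 2 lower. Over all genes without summing, 3.63% were called, and 4.7% were higher and 7.43% lower at an unadjusted p under 0.05.

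Outside this cluster, among genes with a mean of at least 10 normalized counts, opposite signs at least 1 apart on the log2 scale were found in 3 sets of similar genes. Vmn2r84 and Vmn2r86 on chromosome 10 share 57.5% of words. Vmn2r86 had 31, 15.3 and 16.5 normalized counts in the wild-type and 6.3, 7.0 and 8.8 in RTP1,2DKO, with no overlap, a log2 difference of -1.49 with an SE of 0.57, and an adjusted p of 0.28 in edgeR. Vmn2r84 had 43.4, 29.6 and 27.6 against 62.2, 37.5 and 35.3. Vmn2r114 and Vmn2r115 on chromosome 17, which share 40.8%, had log2 fold changes of 0.35 and -0.85, and every RTP1,2DKO mouse was under every wild-type mouse for Vmn2r115, at 27.4, 18.3 and 22.5 against 37.2, 40.1 and 45.2. Vmn2r63 on chromosome 7 had a log2 fold change of 0.66, and its relatives Vmn2r57 and Vmn2r62 had -0.51 and -0.63. None of these genes passed the test. Of the 5 largest increases and 5 largest decreases, only Vmn2r94 and Vmn2r110 on chromosome 17 were in no such set, with log2 differences of 1.07 (SE 0.69) and 1.04 (SE 0.50).

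Opposite signs were counted over pairs of similar and of dissimilar genes, and the shares were not tested against each other. Of 145 pairs that share at least 20% of words, both with a mean of at least 10 normalized counts, 69 or 47.6% had opposite signs, and of 4971 pairs that share under 10%, 2377 or 47.8% had. Of the 23 pairs that share at least 50%, 14 or 60.9% had. Opposite signs at least 1 apart were found in 27 of the 145 pairs, or 18.6%, against 496 of the 4971, or 9.98%, and in 7 of the 23. Without the limit on the mean, there were 48 in 204 similar pairs, or 23.5%, and 1098 in 7114 dissimilar pairs, or 15.4%. The pairs share genes and are not independent, and 23 of the 27 lie in the chromosome 7 cluster. Among genes with a mean of at least 10 normalized counts, the 26 with under 20% unique words had log2 fold changes with an SD of 1.07, the 33 with 20 to 50% an SD of 0.43 and the 44 with at least 50% an SD of 0.37. The first value was carried by Vmn2r38, Vmn2r32 and Vmn2r39, since without the genes past 1 on the log2 scale the 3 SDs were 0.43, 0.35 and 0.31. The variance between mice of a genotype, divided by the mean, had medians of 11.2, 4.21 and 4.55 in the same order, at median counts of 96.3, 39.3 and 31.7. The genes with the fewest unique words thus had the highest variance over the mean between mice of a genotype, and also the highest counts. The part of shared words in this spread was not tested.

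**Figure D4:**
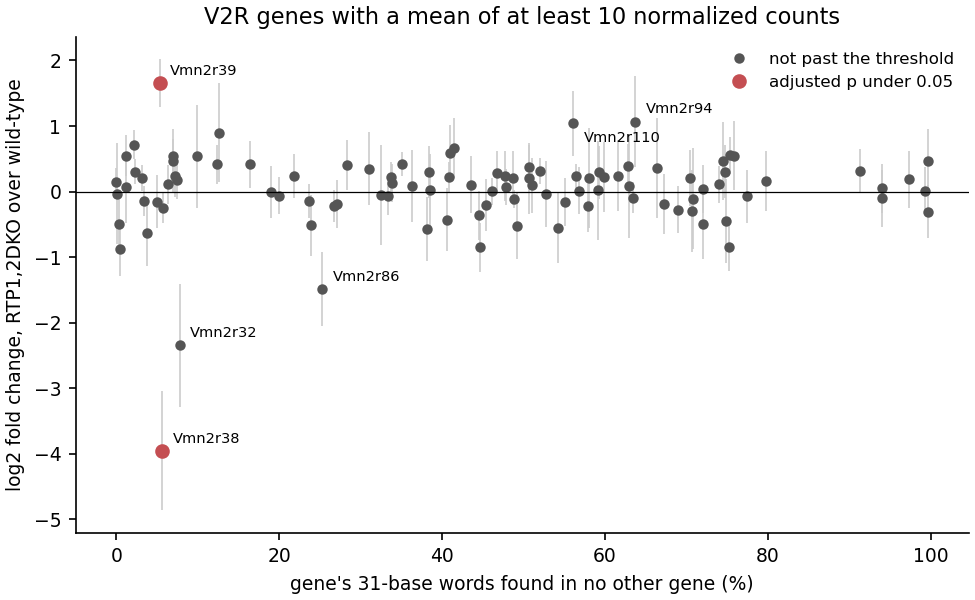
Log2 fold change, RTP1,2DKO over wild-type, with its standard error (y axis), against the percentage of a gene's 31-base words found in no other gene (x axis), for V2R genes with a mean of at least 10 normalized counts and a GENCODE entry. Red points, Vmn2r39 and Vmn2r38, passed the test, and both lie under 20% unique words, as does Vmn2r32. Most other genes lie between -1 and 1 at every share.

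Genes of the V2R pathway were measured beside the receptors. Of 21 listed genes, 1 rose and 1 fell in the edgeR test, against 0.438% and 3.19% of all genes. Gng8, a G protein γ subunit of vomeronasal and immature olfactory neurons, had 227.6, 168.9 and 205.1 normalized counts in the wild-type and 395.2, 329.6 and 402.8 in RTP1,2DKO, a rise of 0.91 on the log2 scale with an SE of 0.18 (edgeR, adjusted p = 0.013). The immature neuron marker Gap43 moved with it, rising by 0.58 on the log2 scale (edgeR, adjusted p = 0.043, and 0.059 with the replicate block), whereas Stmn1 had an adjusted p of 0.061 in edgeR and 0.041 with the block. Without wild-type mouse 2, RTP1,2DKO mouse 1 or RTP1,2DKO mouse 3, Gng8 had adjusted p of 0.0553, 0.0616 and 0.0743 in edgeR, and Gap43 passed in 1 of the 6 edgeR fits with a mouse left out, with an adjusted p of 0.0693 to 0.196 without wild-type mouse 2 or 3 or any of the RTP1,2DKO mice. Ano2, a calcium-activated chloride channel also used by olfactory sensory neurons, fell by 1.18 on the log2 scale with an SE of 0.16 (edgeR, adjusted p = 0.00088). Trpc2, the channel of vomeronasal transduction, had 1304.4, 1099.1 and 1024.3 normalized counts against 1401.5, 1473.8 and 1844.3. Its groups did not overlap, and its log2 difference of 0.46, with an SE of 0.14, did not pass the test (edgeR, adjusted p = 0.13). Gucy1b2, which marks Trpc2-positive cells of the main epithelium, had 32.1, 44.8 and 23.2 against 65.3, 75.9 and 59.8 normalized counts, also without overlap (edgeR, adjusted p = 0.19). Gnao1, which encodes Gαo, differed by -0.12 on the log2 scale with an SE of 0.12.

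Markers of vomeronasal neurons were present in both genotypes. Of 11 listed beside the V1R genes, 10 were among the gene names and none passed the edgeR test (1, Trpc2, at an unadjusted p under 0.05), with 7 above 0 and a summed level of 1622 to 1812 normalized counts in the wild-type and 1893 to 2576 in RTP1,2DKO. Calr4, a calreticulin of vomeronasal neurons, had 173.8, 180.3 and 281.2 normalized counts against 182.3, 265.1 and 246.0. H2-M10.3, a nonclassical class I molecule coexpressed with V2Rs, had 225.5, 208.9 and 271.2 against 197.0, 187.5 and 252.8. H2-M1 had 14.5, 11.4 and 12.1 against 17.9, 18.3 and 27.4, and Tfap2e, a transcription factor of basal vomeronasal neurons, had 19.7, 8.6 and 23.2 against 13.7, 25.3 and 43.1. Beside H2-M10.3, the genes of the list below 0 were H2-M9 and Fpr-rs4, both at few counts. H2-M9 had 9.3, 5.7 and 13.2 against 2.1, 0.9 and 9.8, a log2 difference of -1.13 with an SE of 0.85. Fpr-rs4 had 0, 4.8 and 9.9 against 0, 4.4 and 2.0, a log2 difference of -1.06 with an SE of 1.17. Calr4, H2-M10.3, Tfap2e, H2-M9 and Fpr-rs4 overlapped between the genotypes, whereas Trpc2, H2-M1 and the summed level of the list did not, with RTP1,2DKO above. Trpc2 makes up most of that sum. Of the genes listed under the Grueneberg ganglion, sustentacular cells and ciliated respiratory cells, 0 of 4, 0 of 3 and 0 of 3 passed the edgeR test (2, 0 and 1 at an unadjusted p under 0.05). The 2 were Gucy2d and Cnga3, whereas Gucy2g had means of 6.7 in the wild-type and 6.5 in RTP1,2DKO. Whether these genes mark the ganglion alone was not tested. Over all genes 3.63% passed, and 4.7% were higher and 7.43% lower at an unadjusted p under 0.05. These lists are too short for a count of 0 to be set against such shares. Of the 3 listed for Trpc2-positive cells Cnga2, which mature olfactory sensory neurons also express, fell. Whether the V2R reads came from vomeronasal tissue in the dissection or from cells of the main epithelium was not tested.

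**Figure D5:**
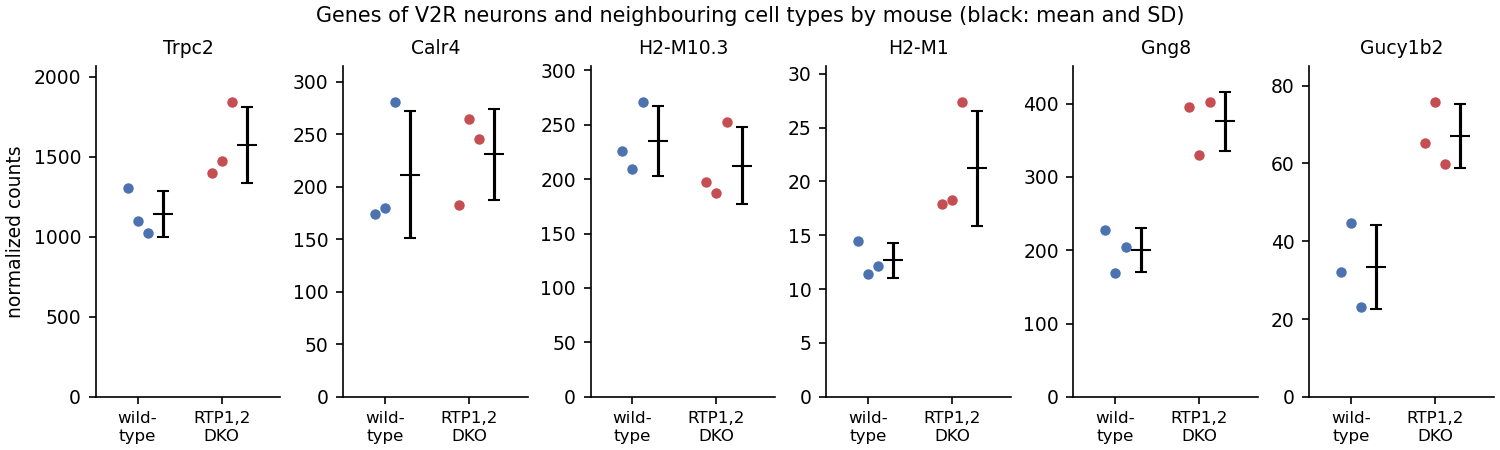
Normalized counts (y axis, from 0) of Trpc2, Calr4, H2-M10.3, H2-M1, Gng8 and Gucy1b2 in each mouse by genotype (x axis). Points are mice, and black bars give the mean and SD. Calr4 and H2-M10.3 overlap between the genotypes, and the other genes do not.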

How the data were processed

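The authors assigned RNA-Seq reads to mouse transcripts with kallisto and deposited, for each transcript and mouse, an estimated count and a TPM value. Kallisto and the build mm10 are named in the submitters' processing notes, and the kallisto version is not given in the sources used here. The library kit is named differently in the labels (KAPA, stranded) and the methods. Groups came from the labels, with 3 mice each.

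For each gene the estimated counts of its transcripts were added, rounded, and divided by DESeq2 (1.42.0) size factors. Every gene with 1 count or more in any mouse was tested with edgeR (4.0.16, quasi-likelihood) in R 4.3.3, with Benjamini-Hochberg adjustment at 0.05. The test was checked on simulated counts drawn for each gene on its own, so the check does not cover genes that share words. Totals lay between 31125410 and 41636996 counts. Of the 127 V2R genes, 125 had an entry in GENCODE M21 (GRCm38, the same assembly as mm10), which gave positions and 31-base words. For 104 the coding length equalled a length in the files. For the rest, the words may not be those of the transcripts that reads were assigned to. V2R genes sharing at least 20% of the words of the smaller gene were linked. The sum over all V2R genes, over Vmn2r1 to Vmn2r7 and by chromosome was given by mouse without a test, and sums of linked genes were tested as features of the fit over all genes. No pair of libraries of the same genotype agreed within sampling noise, and pairs across the genotypes were not compared.

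The methods describe sex-matched littermates. Deviations from the group mean of mice with the same number correlated at 0.14, 0.177 and 0.101 over 18156 genes. Those of mice with different numbers correlated at -0.217 to 0.09. Deviations from a mean of 3 mice are not independent, so these values do not settle the pairing. The main fit did not pair the mice. A fit with the number as a block, which takes the numbers to mark pairs, was an alternative. Others were TMM, other size factors and filters, DESeq2 and the edgeR exact test, each mouse left out, and summed similar genes. The genes named were all V2R genes past the threshold, the 10 with the highest TPM, Vmn2r1 to Vmn2r7, the 5 largest increases and decreases at a mean of at least 10 normalized counts, and groups of similar genes whose members differ in sign and by at least 1. Members and lists were chosen with earlier results of these data known. The study's own fold changes were not used.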

Additional observations from a re-analysis of the deposited data

How the results depend on the processing

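The number of genes called over all genes was 804, and without each mouse in turn it lay between 524 and 716. Of the genes higher in RTP1,2DKO there were 97, and 40 after scaling to the total count, 216 with DESeq2, 147 with the edgeR exact test, 150 with the replicate block, and 41 to 103 without each mouse. V2R genes called higher were 1, and 2 with DESeq2, 3 with the exact test, 2 with the replicate block, 0 with similar genes summed at either limit and 0 to 1 without each mouse. V2R genes called lower were 1, and 0 with DESeq2 (3 at an unadjusted p under 0.05), 0 with similar genes summed at either limit and 0 to 2 without each mouse. The log2 ratio of the family sum was 0.10, and -0.13 in TPM. Genes with at least 50 counts in every mouse were 31 against 79 at 10 counts. Pairs of opposite sign over all tested V2R genes were 97, and 194 and 18 when genes were linked at 10% and 50% of words.

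Some log2 fold changes of uncalled genes changed sign. With similar genes summed, the value of the group was 0.11 for Vmn2r1, Vmn2r31, Vmn2r32, Vmn2r38, Vmn2r43 and Vmn2r46, -0.15 for Vmn2r114, 0.02 for Vmn2r57 and Vmn2r62, 0.005 for Vmn2r6 and Vmn2r7, 0.16 for Vmn2r86 and 0.08 for Vmn2r89. Of these, Vmn2r38 alone had been called. Summed at 50% of words, the value was -0.001 for Vmn2r114, -0.08 for Vmn2r42 and Vmn2r49, 0.47 for Vmn2r43, -0.12 for Vmn2r44, 0.23 for Vmn2r46, 0.005 for Vmn2r6 and Vmn2r7 and -0.06 for Vmn2r84. Without each mouse in turn, the value ranged from -0.16 to 0.36 for Vmn2r-ps129, -0.29 to 0.10 for Vmn2r1, -0.15 to 0.80 for Vmn2r114, -0.18 to 0.84 for Vmn2r3, -0.49 to 0.38 for Vmn2r31, -0.75 to 0.41 for Vmn2r35, -0.10 to 0.28 for Vmn2r36, -0.10 to 0.46 for Vmn2r49, -0.40 to 0.07 for Vmn2r6 and -0.45 to 0.15 for Vmn2r7. The causes were not tested. The replicate block changed no other call among the named genes than those of Vmn2r33, Gap43 and Stmn1. With a median level of 0.488 TPM most V2R genes rest on few counts.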
